A study of Oryza sativa with 2 samples.

Results

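Late embryogenesis abundant (LEA) proteins and dehydrins are a set of water-loving stress proteins, and 7 of their genes were followed in rice leaves. The 7 genes are LEA1, LEA3, RAB21, RAB16B, OS01G0705200, OS04G0589800 and OS02G0669100, out of 76131 rows of the deposited expression table. They were chosen by name with their FPKM values in both libraries already known, so those values and the authors' calls on them describe the choice and support nothing further. Leaves were taken from 2-week-old seedlings of Oryza sativa, cultivar Ilmi, grown in a greenhouse under normal conditions. One group was nontransgenic (NT), with 1 library, and the other carried PGD1:Roc10, also with 1 library. In PGD1:Roc10 plants a promoter that the labels describe as active in the whole body drives Roc10, a homeodomain-leucine zipper transcription factor that the series title ties to lignin synthesis and drought tolerance. Both groups shared cultivar, tissue, age and growth protocol, and the number of plants or transgenic lines behind a library is not given in the labels.

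LEA proteins collect in ripening seeds and, in leaves, when water is short or abscisic acid (ABA) rises. They stay largely unfolded in water and are thought to shield membranes and other proteins during drying. The dehydrins are the LEA class that carries a lysine-rich repeat called the K-segment, and the RAB16 dehydrins take their name from their response to ABA. In rice leaves, transcripts of LEA3 and of the RAB16 genes are widely used as readouts of ABA and dehydration.

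The comparison asks which of these stress genes differ in unstressed leaves that overexpress Roc10. Of the 7 genes, 5 had the lower value in PGD1:Roc10, namely LEA3, RAB21, LEA1, RAB16B and OS04G0589800. Over all rows above 0 in either library, 15017 of 30261 had the lower value there. OS01G0705200 was 7.35-fold higher, and the dehydrin gene OS02G0669100 was nearly the same in both. FPKM counts sequenced fragments relative to transcript length and library size, so levels of different genes can be set side by side. Differences are given as log2(FPKM + 1) in PGD1:Roc10 minus NT. Adding 1 pulls genes with low values towards no difference, and fold values are plain ratios of FPKM. With 1 library in each group there is no replicate spread to judge a difference by, and no test was made. Since whole leaves were used, fewer cells of a type and less RNA per cell cannot be told apart.

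**Figure D1:**
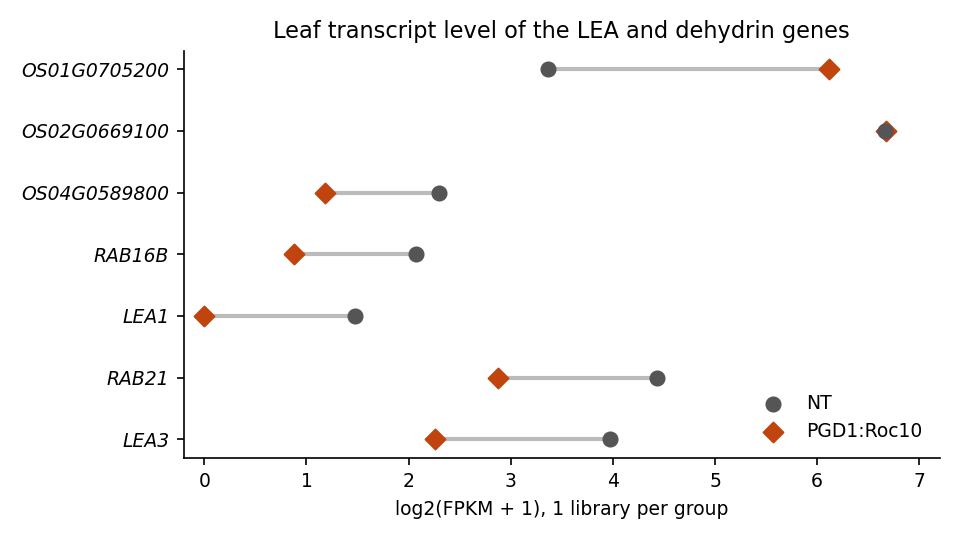
Leaf level of the 7 genes as log2(FPKM + 1) on the horizontal axis, with NT as grey circles and PGD1:Roc10 as orange diamonds, 1 library each, and genes ordered by difference. OS01G0705200 lies to the right of its NT value, OS02G0669100 coincides with it at 101 against 100.2 FPKM, and the other 5 lie to the left.

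The tables analysed here give no count per gene, but they allow a nominal figure. Mapped read pairs numbered 27683296 in NT and 21866514 in PGD1:Roc10. By the definition of FPKM, a value times the locus length and the mapped pairs gives an upper figure for the pairs behind it, because the locus also holds introns. That figure ran in NT from 60 pairs for LEA1 to 3845 for OS02G0669100. In PGD1:Roc10 it was 18 for RAB16B and 20 for OS04G0589800, so these 2 genes rest on few reads. Rows called measured have a mean of at least 1 FPKM over both libraries, and 6 of the 7 genes were measured. LEA1 was not, with a mean of 0.887 FPKM. Rows found by chlorophyll a/b binding and Rubisco small subunit names, used to mark leaf mesophyll, summed to 33261 FPKM in NT and 31825 in PGD1:Roc10. They took in OS02G0725200, by its description a methyltransferase of that subunit, at 55.6 and 54.9 FPKM. Prolamin and oleosin rows, which mark seeds, reached at most 0.445 FPKM in NT and 1.07 in PGD1:Roc10, and 21 of these 32 rows were listed at 0 in both. Measured glutelin rows, from the same list of seed markers, were not so low, with OS01G0111900 at 25.8 FPKM in NT and 30.2 in PGD1:Roc10. GLUA2, OS01G0644600 and OS03G0188500 gave 3.49, 3.66 and 4.65 FPKM in NT, and 3.66, 3.37 and 4.63 in PGD1:Roc10. Roc10 itself was not analysed here, so the transgene could not be used to check the library labels.

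The 2 dehydrins of the RAB16 type among the 7 genes lie close together on chromosome 11. RAB21 (15342876 to 15343671, IRGSP-1.0, as all positions here) gave 20.5 FPKM in NT and 6.35 FPKM in PGD1:Roc10, a difference of -1.55 and a ratio of 3.23. RAB16B (15336191 to 15337158) gave 3.21 FPKM in NT and 0.839 FPKM in PGD1:Roc10, a difference of -1.19 and a ratio of 3.82. Both were therefore lower in the transgenic library, at quite different starting levels.

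The tandem group holds 2 more genes, which were not among the 7. RAB16C, the next gene along, gave 4.48 FPKM in NT and 2.65 FPKM in PGD1:Roc10, a difference of -0.59 that is less than 2-fold. RAB16D, at the far end, was close to undetected in both libraries, at 0.0758 and 0.0926 FPKM. The 4 genes from RAB16D to RAB21 span 23.4 kb, and the 1 other coding row inside that span, the calmodulin-like OS11G0454250, was listed at 0 in both libraries. Another dehydrin gene, OS11G0451700, lies 95540 bases before RAB16D and is described as similar to RAB-17, a dehydrin known from maize. It gave 1.88 FPKM in NT and 0.0916 FPKM in PGD1:Roc10, with a mean just below 1 FPKM. Together the 5 chromosome 11 dehydrins summed to 30.2 FPKM in NT and 10.02 FPKM in PGD1:Roc10. Most of this sum was RAB21, at 20.5 and 6.35 FPKM, which like RAB16B was chosen with its values known. The sum therefore describes the choice as well and gives no further support. The RAB16 genes are related in sequence, so the authors' counting may have divided reads among them, and in that respect single values are less certain than their sum.

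**Figure D2:**
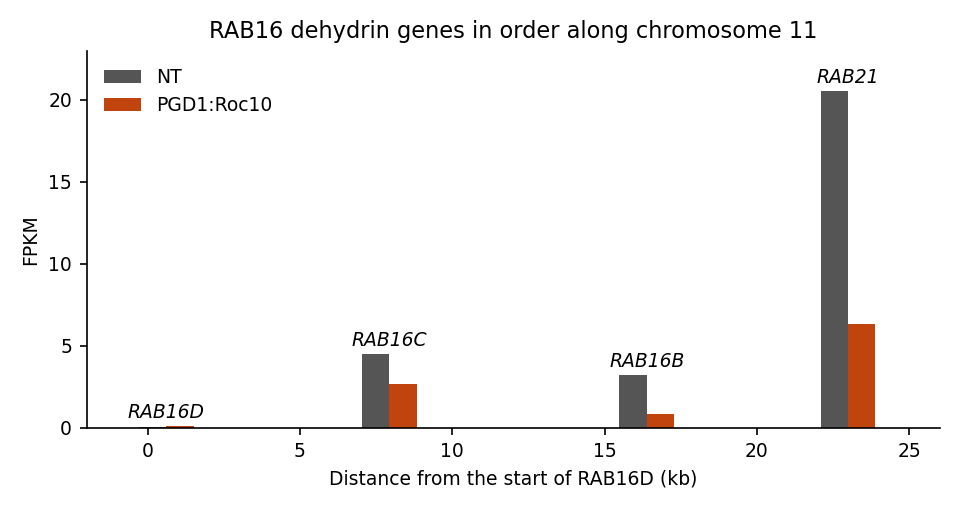
FPKM of the RAB16 genes in NT (grey bars) and PGD1:Roc10 (orange bars), 1 library each, against distance in kb from the start of RAB16D. RAB21 is the most abundant at 20.5 against 6.35 FPKM, RAB16C and RAB16B are lower in PGD1:Roc10, and RAB16D stays below 0.1 FPKM in both.

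OS02G0669100 (chromosome 2, 27165513 to 27166898), described as a dehydrin family gene, differed little between the libraries. It gave 100.2 FPKM in NT and 101 FPKM in PGD1:Roc10, a difference of 0.02. It was the most abundant of the 7 genes in both libraries, ranking 1400 in NT and 1376 in PGD1:Roc10 among 21875 measured rows. The dehydrins in these leaves thus comprised an abundant gene at equal level and scarcer genes on chromosome 11, of which 4 of 5 had the lower value in PGD1:Roc10 and RAB16D, near 0 in both, did not. RAB21 and RAB16B, among these 4, were chosen with their values known. Over all rows above 0 in either library, 15017 of 30261 had the lower value in PGD1:Roc10. Of the 9 dehydrin rows in the table, 2 were listed at 0 in both libraries, and OS01G0624400 reached 0.134 FPKM in PGD1:Roc10 against a listed 0.

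LEA group 3 proteins are built from repeats of a short motif. Genes classed here together as LEA group 3 or LEA repeat proteins held both the highest and the lowest difference of the 7. LEA3 (chromosome 5, 26927606 to 26928882), for which RefSeq also lists the name OsLEA3-1, gave 14.7 FPKM in NT and 3.79 FPKM in PGD1:Roc10. Its difference of -1.72 and ratio of 3.89 put it at rank 109 from the bottom among the measured rows. LEA1 (chromosome 3, 11699459 to 11700672), listed by RefSeq also as OsLEA3-2, gave 1.77 FPKM in NT and was listed at 0 in PGD1:Roc10, so no ratio is given. Such a listing is uncommon but not rare at this level, since 47 of 3876 rows between 1 and 3 FPKM in NT that the authors tested, short RNAs aside, were listed at 0 in PGD1:Roc10. A listed 0 can also be a failed estimate, although the authors' deposited status for LEA1 was OK.

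OS01G0705200 (chromosome 1, 29233039 to 29234256) codes for a protein with LEA repeats and went the other way. It gave 9.32 FPKM in NT and 68.5 FPKM in PGD1:Roc10, a difference of 2.75. By level it held rank 12160 among measured rows in NT and rank 2170 in PGD1:Roc10, and its difference was rank 99 from the top. Of the other 4 group 3 and repeat genes in the table, none of them among the 7, OS01G0109000 was alone in being measured, at 15.4 and 14.4 FPKM. OS01G0276300 gave 0.944 FPKM in NT and was listed at 0 in PGD1:Roc10, OS03G0168100 gave 0.497 and 0.0893 FPKM, and OS02G0250600 gave 0.0731 FPKM and a listed 0. OS01G0705200 was therefore the 1 gene of these 7 group 3 and repeat rows with the higher value in PGD1:Roc10, and 3 of the 7 were listed at 0 there alone. Over all rows, 15017 of the 30261 rows above 0 in either library had the lower value in PGD1:Roc10, and 1294 were listed at 0 only there. Of the 3 genes listed at 0 there alone, OS01G0276300 and OS02G0250600 lay below 1 FPKM in NT.

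OS04G0589800 (chromosome 4, 29811953 to 29812662), of the family the table calls LEA group 1, gave 3.90 FPKM in NT and 1.27 FPKM in PGD1:Roc10. The difference was -1.11 and the ratio 3.07. The other measured gene of that family, OS06G0110200, gave 1.45 and 1.37 FPKM. OS08G0327700 and OS06G0324400 stood at 0.227 and 0.175 FPKM in NT and were listed at 0 in PGD1:Roc10. All 4 genes of the family thus had the lower value in PGD1:Roc10, 3 of them from very low levels or by little. The remaining gene, OS04G0589800, was chosen with its values known. Among all rows above 0 in either library, 15017 of 30261 had the lower value in PGD1:Roc10.

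On the log2(FPKM + 1) scale, 4 of the 6 measured genes were at least 2-fold lower in PGD1:Roc10, where the share over all 21875 measured rows was 1.29%. A single gene, OS01G0705200, was at least 2-fold higher, where the share over all measured rows was 2.29%. In numbers, 502 measured rows were at least 2-fold higher and 282 lower, or 408 and 383 after scaling to an equal total of FPKM, which moved the median of all measured rows to -0.19. Under that scaling 6 of the 7 genes had the lower value in PGD1:Roc10, OS02G0669100 joining the others with the shift. That total includes short RNAs, without which the sums were 857328 FPKM in NT and 837651 in PGD1:Roc10. Scaling to the total without short RNAs gave 530 higher and 271 lower, with a median of 0.02. Scaling to the same median of measured rows gave 496 and 288, with a median of -0.02, so both stayed near the deposited values. Because the genes were chosen on these values, the counts describe the choice. The share of rows that differ depends on level: short RNAs aside, 2.05% of rows with a mean from 1 to 5 FPKM, the range of RAB16B and OS04G0589800, were at least 2-fold lower. For rows with a mean from 5 to 25 FPKM, the range of LEA3 and RAB21, it was 0.772%. Among rows with a mean of 25 FPKM or more, 0.972% were at least 2-fold higher, the range in which OS01G0705200 lies. The median difference of the 6 measured genes was -1.15 and that of all measured rows was -0.01.

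In the authors' deposited table, which rests on Cuffdiff with 1 library per group, 2 of the 7 genes were called significant. Over all 24683 rows the authors tested, 0.579% were called. The authors' deposited table gives q = 0.0111 for OS01G0705200 and q = 0.0363 for LEA1. For LEA3 the authors' deposited table gives p = 0.00295 and q = 0.276, and for RAB21 p = 0.0073 and q = 0.508. RAB16B, OS04G0589800 and OS02G0669100 each had q = 0.999 in the authors' deposited table, with p = 0.0509, p = 0.0991 and p = 0.955. The call on LEA1 therefore went to the gene with the lowest level of the 7, while LEA3 and RAB21, at higher levels, were not called.

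**Figure D3:**
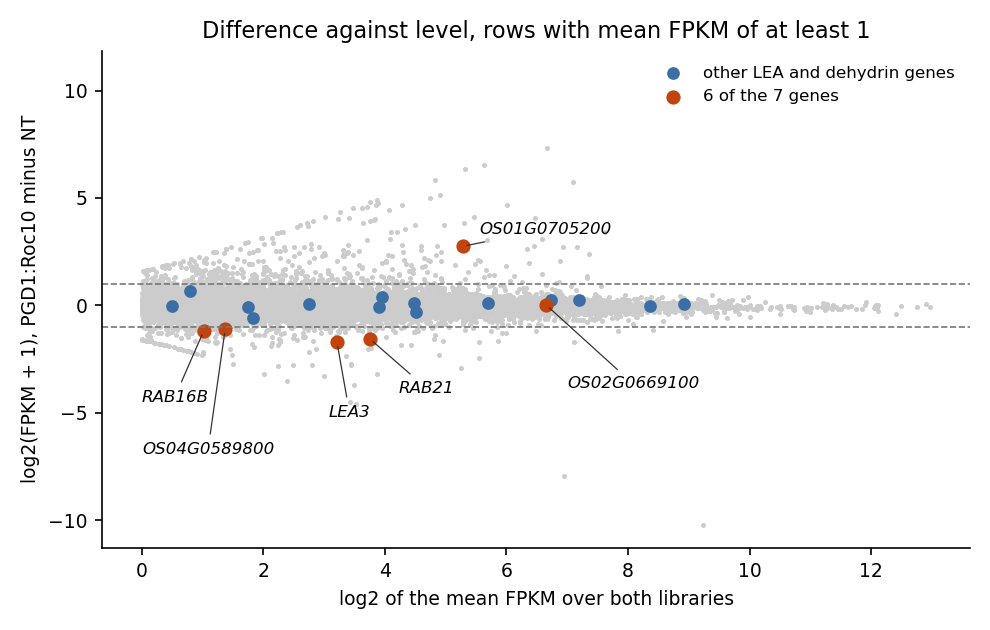
Difference in log2(FPKM + 1), PGD1:Roc10 minus NT, against log2 of the mean FPKM, for measured rows other than short RNAs (grey), with 6 of the 7 genes in orange, other LEA, dehydrin and seed maturation genes in blue and dashed lines at 2-fold. OS01G0705200 stands above the cloud at 2.75, LEA3 and RAB21 lie below it at -1.72 and -1.55, and OS02G0669100 lies at 0.02.

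The wider family gives the setting for these 7 genes. A search of symbols and descriptions for LEA, dehydrin, RAB16 and seed maturation names found 47 rows, of which 12 were listed at 0 in both libraries and 21 were measured. The search also took in OS05G0341600, a Ras-related GTPase-like gene that is no LEA gene, and without it 46 rows and 20 measured rows remain. Outside the 7 genes, 0 of the 15 measured rows of the list differed 2-fold in either direction on the log2(FPKM + 1) scale, 9 being higher and 6 lower, with a median difference of 0.05, the GTPase-like row included. Scaled to the same total, 4 were higher and 11 lower, with a median of -0.13, above that of all rows. The 2-fold differences of measured family rows on that scale thus lay among the 7 genes, which were named with these values in view. As 2.29% of all measured rows were 2-fold higher and 1.29% lower, 0 of 15 is near the share over all rows. By direction as deposited, 10696 of all 21875 measured rows were higher and 11179 lower. With no filter on low values 6 rows of the list were at least 2-fold lower in place of 4, the added ones being LEA1 and OS11G0451700, which is outside the 7 and whose mean of 0.984 FPKM lies above that of LEA1.

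The abundant LEA genes of these leaves stood close to equal in the 2 libraries. OS01G0314800, of the LEA 3 family and the most abundant row of the list, gave 472 FPKM in NT and 502 FPKM in PGD1:Roc10. OS03G0607500, described as similar to the seed maturation protein PM23, gave 331 and 326 FPKM, and the seed maturation protein-like OS01G0736900 gave 134 and 158 FPKM. The LEA14-like OS05G0584200 gave 97.1 and 117 FPKM, and OS03G0843300, of the LEA 2 family, gave 50.3 and 53.9 FPKM. LEA14-type proteins fold stably, unlike most of the family. Where 10696 of all 21875 measured rows had the higher value in PGD1:Roc10, so did 4 of the 5 measured genes of this type. After scaling to the same total, 3 of these 5 were higher. As deposited, none differed 2-fold on the log2(FPKM + 1) scale. The farthest of these 5, OS08G0163600, went from 1.11 to 2.35 FPKM, a difference of 0.67 on that scale and a plain ratio of 2.12.

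The wider list can also be divided by level, without the GTPase-like row but with the seed maturation rows. These counts hold the 7 genes chosen on these values, which supply every measured 2-fold difference on the log2(FPKM + 1) scale. Over all measured rows, 10696 of 21875 had the higher value in PGD1:Roc10, and scaling to the same total moved their median to -0.19. Among all rows above 0 in either library, 15017 of 30261 had the lower value there, and 1294 were listed at 0 only there. Of the 7 rows with a mean of at least 25 FPKM, 6 had the higher value in PGD1:Roc10, 3 after scaling to the same total, and only OS01G0705200 of them by 2-fold. Of the 13 rows with a mean from 1 to 25 FPKM, 9 had the lower value, 11 after that scaling, and 4 were 2-fold lower. Without the 7 genes, 4 of 5 rows in the upper range were higher, and in the lower range 4 were higher and 5 lower. On the values as deposited, no lean to lower values was thus seen there. These counts by range without the 7 genes were not repeated after scaling to the same total. Of the 14 rows above 0 but below 1 FPKM, 8 had the lower value in PGD1:Roc10, 5 of which were listed at 0 there. The Em-type gene EMP1, of a class found mainly in embryos, lay in this last range at 0.0967 and 0.184 FPKM.

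**Figure D4:**
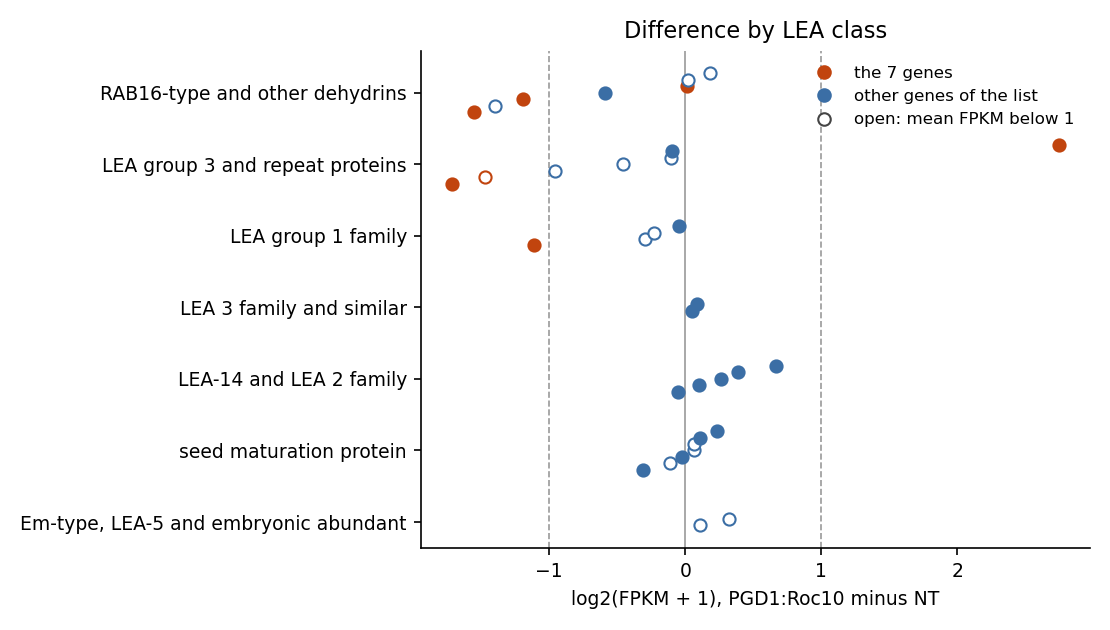
Difference in log2(FPKM + 1), PGD1:Roc10 minus NT, for each LEA, dehydrin and seed maturation gene listed above 0, grouped by class on the vertical axis, with the 7 genes in orange, others in blue, open circles for a mean below 1 FPKM and dashed lines at 2-fold. Values beyond 2-fold lower occur among the dehydrins, group 3 and group 1, and the 1 value beyond 2-fold higher is OS01G0705200 at 2.75.

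ABA switches on RAB16 and LEA3 genes, and a list of genes for ABA synthesis and signalling, with some ABA-induced products among them, held no measured row that differed 2-fold. Over all measured rows only 2.29% were at least 2-fold higher and 1.29% lower, so a 0 in a list this short says little about its genes. By direction as deposited, 10696 of all 21875 measured rows were higher and 11179 lower. Of 29 rows on this list 22 were measured, 14 higher and 8 lower in PGD1:Roc10, with a median difference of 0.03, or 7 higher and 15 lower with a median of -0.17 after scaling to the same total. Without the 3 measured ABA-induced products, OS01G0963600, OS02G0734400 and OS08G0467500, 12 were higher and 7 lower, with a median of 0.03. TRAB1, a bZIP factor that binds ABA response elements, gave 23.3 FPKM in NT and 24.02 FPKM in PGD1:Roc10. The largest differences belonged to the ABA-induced protein-like OS02G0734400 (11.2 and 17.2 FPKM) and to the kinase genes SAPK10 (OS03G0610900, 7.05 and 4.80 FPKM) and SAPK2 (OS07G0622000, 49.9 and 66.5 FPKM). SAPK kinases are activated by osmotic stress or ABA. OS01G0963600, of an ABA- and drought-induced protein family, was the most abundant row of the list at 771 and 847 FPKM. VP1 and ABI4, regulators of ABA response in seeds, were listed at 0 in both libraries.

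The DREB/CBF factors, which bind the dehydration-responsive promoter element, and the genes for protective sugars, proline and betaine also held no 2-fold difference. At shares of 2.29% higher and 1.29% lower over all measured rows, this too says little about such short lists. By direction as deposited, 10696 of all 21875 measured rows were higher and 11179 lower. Of 9 measured DREB/CBF rows 4 were higher and 5 lower, with a median of -0.01, or -0.20 after that scaling. DREB2A gave 9.59 FPKM in NT and 9.53 FPKM in PGD1:Roc10, DREB1A gave 69.1 and 66.3 FPKM, and the DREB2B-like OS02G0752800 gave 539 and 415 FPKM. DREB1C went from 0.931 to 1.82 FPKM, and DREB1H from 1.19 to 1.58 FPKM. Of 16 measured osmoprotectant rows 10 were higher and 6 lower, with a median of 0.11, or 6 higher and 10 lower with a median of -0.06 after it. The trehalose-6-phosphate phosphatase genes TPP9 (2.29 and 4.16 FPKM) and TPP1 (4.71 and 7.36 FPKM) and the trehalose-6-phosphate synthase-like OS08G0414700 (3.80 and 2.33 FPKM) differed most. P5CS, for proline synthesis, gave 23.9 and 22.6 FPKM.

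Seed maturation products other than LEA proteins and the leaf markers gave 0 rows beyond 2-fold among 8 and 14 measured, with medians of 0.15 and -0.10, which that scaling moved to -0.06 and -0.31. The 14 include the methyltransferase row OS02G0725200 given above. With 2.29% of all measured rows higher and 1.29% lower by that much, these counts of 0 are near the share over all rows. The caleosin-like OS02G0734600 (67.1 and 88.6 FPKM), the caleosin OS06G0254600 (3.73 and 4.64 FPKM) and the glutelin family gene OS01G0111900 (25.8 and 30.2 FPKM) differed most among the seed products. The leaf marker that differed most was the chlorophyll a/b binding protein-like OS02G0764500, at 129 FPKM in NT and 95.8 FPKM in PGD1:Roc10. The others named by size were OS09G0439500 at 33.0 and 27.2 FPKM and OS09G0296800 at 85.0 and 71.8 FPKM.

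**Figure D5:**
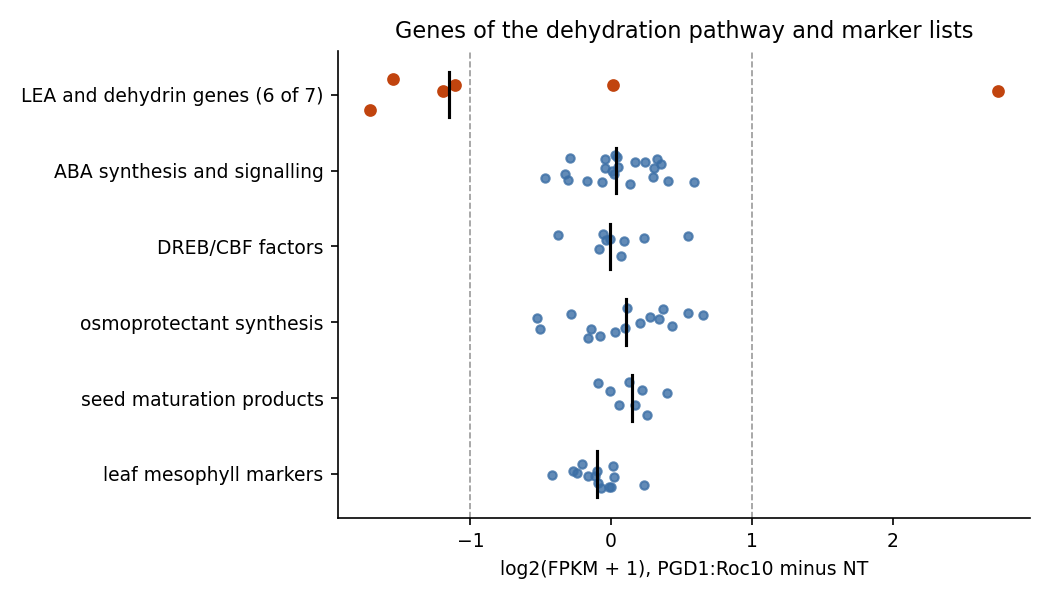
Difference in log2(FPKM + 1), PGD1:Roc10 minus NT, of measured genes in each list, with the 6 measured LEA and dehydrin genes in orange, other lists in blue, black bars at the median and dashed lines at 2-fold; vertical scatter within a list carries no value. On the values as deposited, medians of the other lists lie between -0.10 and 0.15, and all their measured genes lie within 2-fold.

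None of the 7 genes overlapped another row of the table, so no value was divided by a shared locus. The nearest coding rows on both sides, 13 genes apart from the 7, held 8 measured rows, and 0 of these differed 2-fold. The shares over all measured rows were 2.29% higher and 1.29% lower. RAB16C, the neighbour of RAB16B given above, had the lower value in PGD1:Roc10 as RAB16B did, by a difference of -0.59. OS03G0322800 and OS03G0323100 beside LEA1 gave 13.01 and 14.5 FPKM, and 13.3 and 13.1 FPKM, in NT and PGD1:Roc10. OS05G0542300 and OS05G0542600 beside LEA3 gave 8.38 and 10.3 FPKM, and 7.62 and 7.18 FPKM. OS04G0589900, which follows OS04G0589800, gave 33.9 and 34.3 FPKM. Beside OS01G0705200, the germin-like OS01G0705100, 464 bases away, was listed at 0 in both libraries, and OS01G0705400 gave 0.635 and 0.560 FPKM.

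Rows with the levels most like those of RAB21 and OS01G0705200 were found by distance over the 2 libraries in log2(FPKM + 1). For RAB21 they were OS06G0498800, similar to MOTHER of FT and TF1 (19.1 FPKM in NT and 7.58 in PGD1:Roc10, distance 0.24), the chitin-binding allergen-like OS11G0592200 (24.1 and 8.11 FPKM, 0.38) and the aldolase-like OS08G0120600 (16.1 and 7.37 FPKM, 0.38). For OS01G0705200 they were the rhodanese-like OS04G0249600 (8.46 and 52.3 FPKM, 0.40), the WRKY transcription factor gene OS09G0417600 (10.3 and 91.9 FPKM, 0.44) and the oxygenase-like OS10G0536400 (14.5 and 56.9 FPKM, 0.65). Likeness over 2 libraries is a match of 2 levels and no more.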

How the data were processed

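RNA from leaves was sequenced as strand-specific libraries, 1 per group, per the labels' protocols. Trimmed reads were aligned with TopHat 2.0.12 and quantified with Cufflinks and Cuffdiff 2.2.1 on IRGSP-1.0 with Ensembl release 23, per the file headers. The deposited FPKM values and the deposited p-values and q-values are the authors' own, and q was copied, never recomputed. The strand setting of the counting is not given in the sources used here, nor whether locus starts count from 0 or 1.

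What 1 fragment is worth was read from 1131 rows below 0.15 FPKM in both libraries. The commonest ratio of PGD1:Roc10 to NT was 1.23, where mapped pairs stand at 1.27. Of the 1131 rows, 290 lay within 3% of that commonest ratio, so steps of single fragments may show in part of the low values. Whole counts per gene were not recovered.

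Differences use a pseudocount of 1 and a mean of at least 1 FPKM. Members and lists were chosen with earlier results of these data known. Genes named are the 7, list members beyond 2-fold, the 6 most abundant of the wider family, the 3 largest differences of each other list, neighbours and nearest levels. Any other gene was named after its values were seen. RefSeq's table, of another assembly, matched 4 of the 7 symbols and gave names only. Python 3.11.15, NumPy 2.4.6, pandas 2.3.3 and matplotlib 3.10.9 were used. Counting was tested on simulated 4-fold changes in rows of at least 5 FPKM in NT. It was not tested at the lower levels of LEA1, RAB16B and OS04G0589800. Alternatives were other pseudocounts, scalings, filters, folds and list edits.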

Additional observations from a re-analysis of the deposited data

How the results depend on the processing

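LEA3, RAB21 and OS01G0705200 kept their direction and stayed beyond 2-fold under all 6 other pseudocounts and scalings, with differences from -1.93 to -1.17, -1.73 to -1.17 and 2.36 to 2.86. With a pseudocount of 5, LEA1 (-0.44), RAB16B (-0.49) and OS04G0589800 (-0.51) were within 2-fold, since a larger pseudocount shrinks low values, and the wider list then had 2 rows at least 2-fold lower in place of 4. That setting left 214 of all rows higher and 100 lower. A pseudocount of 0.1 gave 483 lower over all rows, and 2 higher and 4 lower in the wider list. Scaling to the same total FPKM moved the median of all measured rows to -0.19 and OS02G0669100 to -0.19, so its direction reversed with that shift. A mean of at least 5 FPKM left 2 lower in the wider list, and 249 higher and 138 lower over all rows. In the wider list 1.5-fold gave 2 higher, 4-fold gave 0 lower, and leaving out the 7 genes gave 0 higher and 0 lower. No filter, or a mean of at least 0.5 FPKM, gave 6 lower in the wider list in place of 4. Of 50 alternative counts for the wider list and all rows, 38 stayed within 1.5 times, the counts of 6 lying at that limit. Leaving out the GTPase-like row, seed maturation rows, short RNAs or ABA-induced products was chosen after seeing the data. No paired analysis was possible because each group has 1 library and the result comes from no test. No replicate could be left out. The depth of single values is known only nominally.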
